A study of Mus musculus with 2 samples.

Results

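Collagens, small leucine-rich proteoglycans and fibronectin are structural components of the extracellular matrix, and 7 of their genes were examined in E14.5 mouse cortex: Col1a1, Col1a2, Col3a1, Col18a1, Lum, Dcn and Fn1. They are 7 of the 2381 loci in the deposited table of RNA sequencing results, each with 1 row under its own symbol. The first group was cortex with both copies of Trrap floxed and the Nestin-Cre transgene (TrrapF/F NestinCre+), called Trrap-deleted. The second, entered as wild type, was by its description heterozygous, with 1 floxed and 1 normal copy together with the transgene (TrrapF/+ NestinCre+), and is called the control. Both were on a B6/129 background and of stage E14.5, and both carried Cre. Trrap is a large adaptor protein shared by histone acetyltransferase complexes, and Nestin-Cre acts in neural progenitors and their descendants. Each genotype had 1 library, so no value has a replicate error, and the sources used here do not say how many embryos went into a library.

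The 7 genes were chosen by their FPKM in these 2 libraries. Their differences are therefore a description of these 2 libraries and carry no test of their own. The table holds only loci that the authors marked significant, so a gene without a row is called not listed, and nothing is known of its level. Values are FPKM, that is fragment counts divided by transcript length and by library size, and the number of reads behind a value is unknown. Trrap itself was not listed, so the labels could not be checked by it. Sex-linked transcripts differed as well: the Y-linked gene Eif2s3y had 32.8 FPKM in the Trrap-deleted cortex and 0.111 FPKM in the control, and Xist, the RNA of X inactivation, had 142 FPKM in the Trrap-deleted cortex and 313 FPKM in the control. With 1 library per genotype, that difference and the genotype cannot be told apart in any result below.

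Fibrillar collagens form the rope-like fibres of connective tissue and are made mainly by fibroblasts, which in the embryonic head include cells of the meninges. Small leucine-rich proteoglycans bind collagen fibrils and govern their spacing and width. Fibronectin is a glycoprotein that integrins assemble into fibres, and collagen XVIII is a heparan sulphate proteoglycan of basement membranes, found along blood vessels and at the surface of the brain. In the developing cortex the basement membrane beneath the meninges anchors the end feet of radial glia.

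The 7 genes did not share a direction in the Trrap-deleted cortex. The 3 fibrillar collagen genes and the 2 proteoglycan genes were higher, and Col18a1 and Fn1 were lower. The 5 higher genes were each at least 3.55-fold higher, with a largest difference of 50.5-fold in Lum. Over all 2381 listed rows 58.0% were higher in the Trrap-deleted cortex and 25.5% were at least 2-fold higher, and the choice of genes used this comparison, so nothing is read from 5 of 7 against those shares. Lower rows made up 42.0% of the table, and 13.6% of rows were at least 2-fold lower, as Col18a1 was. The median log2 fold change (Trrap-deleted over control) was 2.89 over the 7 genes and 0.54 over the 2376 rows where neither library was at 0.

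**Figure D1:**
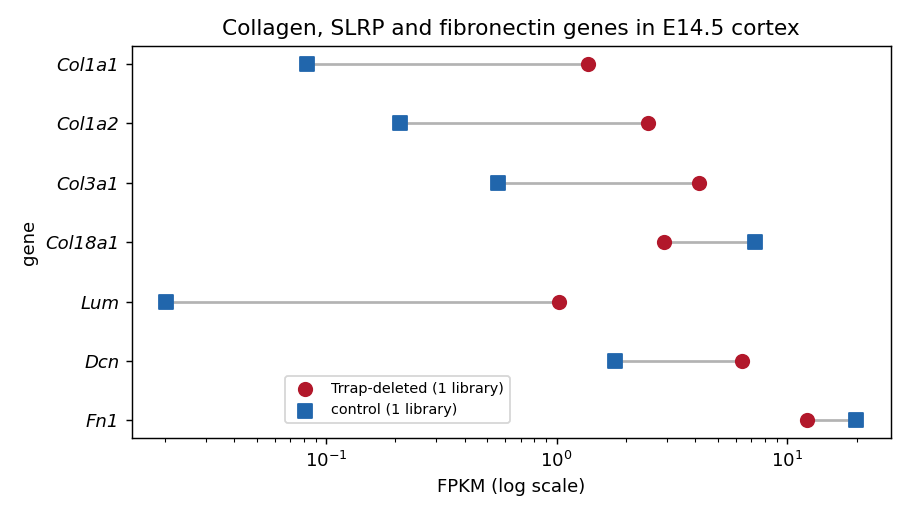
FPKM (log scale) of the 7 genes in the Trrap-deleted library (circles) and the control library (squares), 1 library per genotype, with a line joining the 2 values of each gene. The circle lies right of the square for Col1a1, Col1a2, Col3a1, Lum and Dcn, and left of it for Col18a1 (2.93 and 7.23 FPKM) and Fn1 (12.2 and 19.9 FPKM).

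The stretch of DNA before the start of a gene is shown for 1 collagen gene that was higher and for the 1 that was lower, since both belong to the same protein family. RefSeq windows on GRCm38.p6, matched by symbol, were found for 3 of the 7 genes (Col3a1, Col1a2 and Col18a1); the window of Col1a2 and a second one of Col18a1 reach a GENCODE M21 exon of the gene within their first 10 bases and are not shown, and the one shown for Col18a1 stops where such an exon begins. Capitals mark matches, on either strand, to 4 short motifs. They are the CCAAT box, the TATA box spelled as TATAAA, the GC box spelled as GGGCGG and the Smad-binding element spelled as CAGAC. The Col3a1 window covers chr1:45311288-45311537 on the plus strand and the Col18a1 window covers chr10:77166549-77166780 on the minus strand, and both are written in the direction of transcription.
Col3a1: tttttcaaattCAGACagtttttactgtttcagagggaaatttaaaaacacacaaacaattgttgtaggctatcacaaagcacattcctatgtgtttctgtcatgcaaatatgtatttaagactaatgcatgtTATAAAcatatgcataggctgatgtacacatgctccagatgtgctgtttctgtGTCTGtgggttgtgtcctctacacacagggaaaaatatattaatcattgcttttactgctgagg
Col18a1: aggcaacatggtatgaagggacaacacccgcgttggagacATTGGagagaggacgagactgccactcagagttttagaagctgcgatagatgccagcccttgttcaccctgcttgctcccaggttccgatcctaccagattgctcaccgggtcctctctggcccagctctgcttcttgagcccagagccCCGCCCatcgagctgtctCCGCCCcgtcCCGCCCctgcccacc

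The Col3a1 window of 250 bases had 1 TATAAA, which begins 117 bases before the start, and 2 matches to CAGAC, 1 on each strand. It had no CCAAT box and no GC box. Of all 32851 RefSeq windows of that length, 12.4% held TATAAA and 42.2% held CAGAC. The 232 bases shown for Col18a1 had 3 GC boxes and 1 CCAAT box, all 4 on the strand opposite to the one shown. Over the same 232 bases of all windows, 30.1% held a GC box and 32.4% a CCAAT box. The G and C content was 35.2% in the Col3a1 window and 60.8% in the Col18a1 window. No match overlapped another. These matches describe the letters and say nothing of which factors bind there.

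The fibrillar collagen genes were weakly expressed in both libraries and higher in the Trrap-deleted cortex. Col1a1, the alpha 1 chain of collagen I (mm9 chromosome 11, 94797538 to 94814356), had 1.37 FPKM in the Trrap-deleted cortex and 0.0825 FPKM in the control, a log2 fold change of 4.05. Col1a2, the alpha 2 chain that assembles with it (chromosome 6, 4454814 to 4491543), had 2.50 FPKM in the Trrap-deleted cortex and 0.210 FPKM in the control, a log2 fold change of 3.57. Both collagen I chains were thus below 1 FPKM in the control only. Col3a1, the single chain of collagen III, which forms fibrils together with collagen I (chromosome 1, 45368383 to 45406551), had 4.13 FPKM in the Trrap-deleted cortex and 0.558 FPKM in the control, a log2 fold change of 2.89. Summed over the 3 genes, the level was 7.99 FPKM in the Trrap-deleted cortex and 0.851 FPKM in the control, 9.40-fold higher.

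The order of the 3 fibrillar genes by level was the same in both libraries, with Col1a1 lowest and Col3a1 highest, but the distances between them differed. Col1a2 stood at 1.83 times the level of Col1a1 in the Trrap-deleted cortex and at 2.55 times in the control. Col3a1 stood at 3.02 times the level of Col1a1 in the Trrap-deleted cortex and at 6.76 times in the control. Without replicates there is no spread against which to set these ratios. In the authors' deposited table the q-value was 6.10e-08 for Col1a1, 2.89e-07 for Col1a2 and listed as 0 for Col3a1. By the size of the authors' test statistic Col3a1 ranked 14 of 2376 rows, ahead of Col1a1 (216) and Col1a2 (261), which had the larger folds.

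In bulk tissue, more cells of a type and more RNA per cell cannot be told apart, so these levels belong to the dissected tissue as a whole. Markers of meningeal and mesenchymal cells that are not matrix genes moved in the same direction: 5 of 28 were listed and all 5 were higher, with a summed level of 23.2 FPKM in the Trrap-deleted cortex and 11.1 FPKM in the control. Higher rows made up 58.0% of the whole table and 74.0% of the rows of 1 to under 10 FPKM in the higher library. Islr, S100a6 and Cd248 lie in that range, so nothing is read from the count of 5. Most of the summed level was that of Cxcl12. The 5 were Tbx18, a T-box transcription factor (0.391 FPKM in the Trrap-deleted cortex, 0.110 FPKM in the control), Islr (1.01 and 0.310 FPKM in that order), S100a6, a calcium-binding protein (1.77 and 0.559 FPKM), Cd248, endosialin (2.61 and 0.904 FPKM), and the chemokine gene Cxcl12 (17.4 and 9.21 FPKM). The other 23, among them the defining meningeal factors Foxc1 and Foxd1, were not listed. Since the list took only rows above 0 in both libraries, no listed marker could be at 0. The part of such cells in the collagen difference was not tested.

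Both small leucine-rich proteoglycan genes in the table were higher. Lum encodes lumican, a keratan sulphate proteoglycan that regulates fibril width (chromosome 10, 97028135 to 97035337). It had 1.02 FPKM in the Trrap-deleted cortex and 0.0203 FPKM in the control, a log2 fold change of 5.66. Its control level was the third lowest of the 2376 rows with values in both libraries and its fold change the sixth highest. The fold therefore rests on a value near 0 whose read number is unknown, and in the authors' deposited table Lum had the weakest result of the 7 genes, with a test statistic of 2.98 in size (position 2023 of 2376) and a q-value of 0.0293.

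Dcn encodes decorin, which binds collagen fibrils and also the growth factor TGF-beta (chromosome 10, 96942245 to 96980777). It had 6.34 FPKM in the Trrap-deleted cortex and 1.79 FPKM in the control, a log2 fold change of 1.83, and a q-value of 4.70e-09 in the authors' deposited table. Dcn gained 4.56 FPKM and Lum 1.00 FPKM, so the smaller fold went with the larger difference in level. Dcn stood at 6.20 times the level of Lum in the Trrap-deleted cortex and at 88.2 times in the control. The genes are neighbours, with 47357 bases between their loci on mm9. The other 14 of 16 genes of the family, among them Bgn (biglycan) and Fmod (fibromodulin), were not listed, including Kera and Epyc from the same stretch of chromosome 10.

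Col18a1 was the only collagen gene of 44 in the collagen lists that was listed as lower. It encodes the alpha 1 chain of collagen XVIII, whose C-terminal fragment is endostatin (chromosome 10, 76494986 to 76629293). It had 2.93 FPKM in the Trrap-deleted cortex and 7.23 FPKM in the control, 2.47-fold lower (log2 fold change -1.30), with a q-value of 1.74e-04 in the authors' deposited table. In the control its level was above that of every fibrillar collagen gene listed, while in the Trrap-deleted cortex Col3a1 was above it. The locus in the table spans 134308 bases against 114371 for the gene in GENCODE M21, and reads from beyond that annotation may be included.

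Fn1, fibronectin, was the most abundant of the 7 genes in both libraries (chromosome 1, 71632094 to 71709417). It had 12.2 FPKM in the Trrap-deleted cortex and 19.9 FPKM in the control, 1.63-fold lower (log2 fold change -0.70), with a q-value of 2.89e-05 in the authors' deposited table. Its locus also spans more than the annotated gene, 77324 against 67681 bases. Although its fold was the smallest of the 7, its difference of -7.64 FPKM was the largest in level. Fn1 stood at 2.96 times the level of Col3a1 in the Trrap-deleted cortex and at 35.6 times in the control.

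Summed as deposited, the level of the 7 genes was nearly the same in both libraries, 30.5 FPKM in the Trrap-deleted cortex and 29.8 FPKM in the control, but its make-up was not. The near equality holds at the deposited scaling only. Relative to the median row the log2 ratio of the sums is lower by 0.54, and at the same summed FPKM it is higher by 0.35. The percentages below do not depend on scaling. Fn1 made up 40.0% of the sum in the Trrap-deleted cortex and 66.8% in the control, and Col18a1 made up 9.61% and 24.3% in that order. The 3 fibrillar collagen genes made up 26.2% in the Trrap-deleted cortex and 2.86% in the control. The proteoglycan genes made up 24.1% in the Trrap-deleted cortex and 6.07% in the control. Lum alone made up 3.35% in the Trrap-deleted cortex and 0.0681% in the control.

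**Figure D2:**
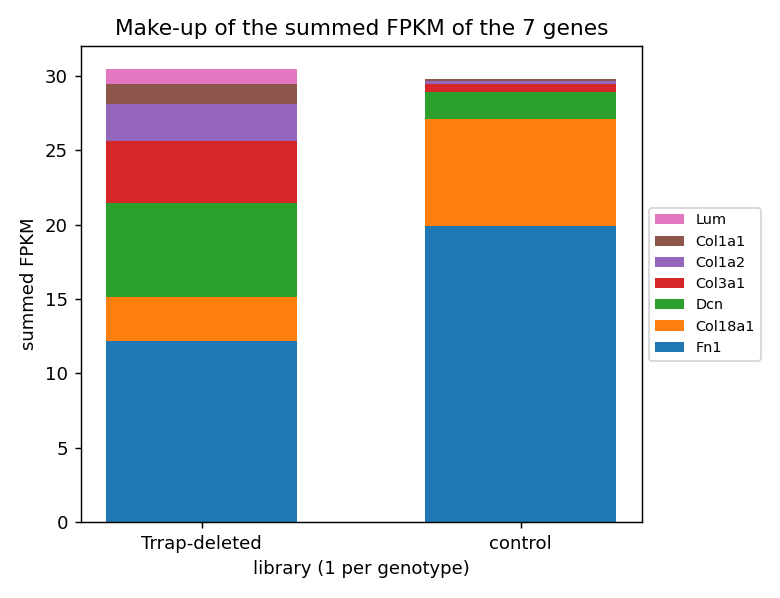
Summed FPKM of the 7 genes in the Trrap-deleted library (left) and the control library (right), 1 library per genotype, with a coloured segment per gene. At the deposited scaling the columns reach 30.5 and 29.8 FPKM. The Fn1 and Col18a1 segments together take 49.7% of the left column and 91.1% of the right one.

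The genes also lay at different places in the range of levels of the whole table. The 5 higher genes had between 1.02 and 6.34 FPKM in the Trrap-deleted cortex and between 0.0203 and 1.79 FPKM in the control. Loci at such levels were mostly listed as higher. Of 711 rows with 1 to under 10 FPKM in the higher library, 74.0% were higher in the Trrap-deleted cortex and 49.1% were at least 2-fold higher. Of the 7 genes 6 fall in that range and 5 of them were at least 2-fold higher. Lum, Col1a1, Col1a2 and Col3a1 reach 1 FPKM only in the Trrap-deleted cortex, where they are high. Nothing is therefore read from this count against those shares. Set relative to the median row, every log2 fold change is lower by 0.54. The 7 genes kept their directions, with Dcn at 1.28, Fn1 at -1.24 and Col18a1 at -1.85.

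**Figure D3:**
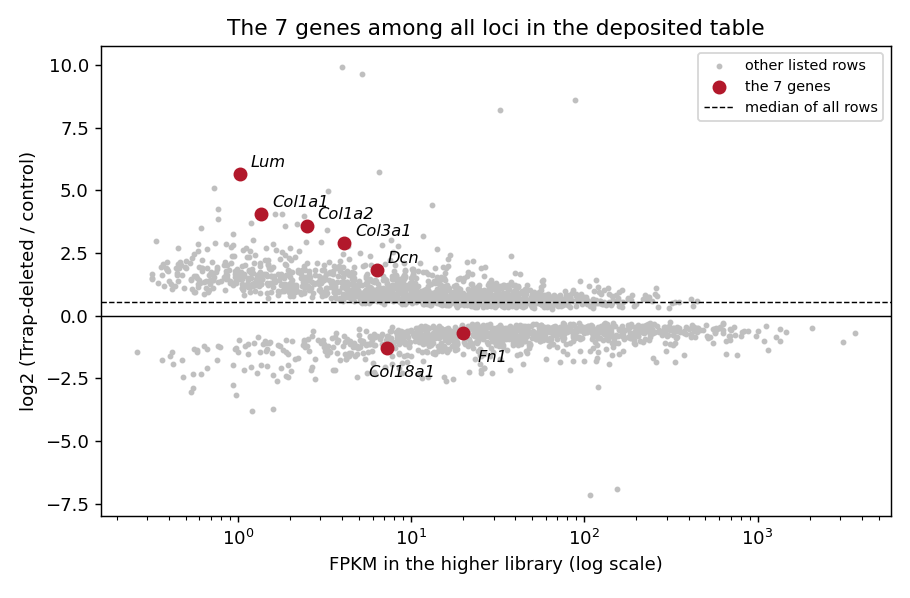
Log2 fold change (Trrap-deleted over control) against FPKM in the higher library (log scale) for the 2376 loci where neither library was at 0, with the 7 genes in red, the solid line at 0 and the dashed line at the median of all rows (0.54). Lum, Col1a1, Col1a2 and Col3a1 rank 6, 13, 20 and 30 from the highest log2 fold change, Dcn lies inside the upper part of the cloud at rank 148, and Col18a1 and Fn1 lie inside its lower part.

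The rows most like each gene were sought as the protein-coding loci nearest to it in the plane of log2 FPKM of both libraries, that is over 2 samples only. The nearest row to Fn1 was Zfp606 (distance 0.03), followed by Cenpt, a kinetochore protein gene, at 11.9 FPKM in the Trrap-deleted cortex and 19.7 FPKM in the control (distance 0.04). Drp2 (distance 0.08) and 2610042L04Rik (0.09) were nearest to Col18a1. The kinase gene Prkcb (0.12) and Dapp1 (0.19) were nearest to Dcn, and the transcription factor gene Stat4 (0.17) and Prune2 (0.40) to Col3a1. Gm12447 (0.07) and Arhgap36 (0.48) were nearest to Col1a2, and Mal2 (0.26) and Kcnj4 (0.55) to Col1a1. Lum had the most distant neighbours, Slc6a7 (0.49) and Lor (1.07). None of these 14 rows is a matrix gene of the lists used here.

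The other listed collagen genes were all higher in Trrap-deleted cortex. Of 44 collagen genes 9 were listed, and outside the genes above these were 5, with a median log2 fold change of 2.30. Over all rows 58.0% were higher, and 74.0% of those of 1 to under 10 FPKM in the higher library. Col6a2, Col25a1 and Col9a1 were under 1 FPKM in both libraries, so nothing is read from the count. Col6a3 and Col6a2, chains of the beaded-filament collagen VI, had 1.11 and 0.953 FPKM in the Trrap-deleted cortex, against 0.171 and 0.181 FPKM in the control. Col22a1 had 4.37 FPKM in the Trrap-deleted cortex and 0.903 FPKM in the control. Col25a1, a transmembrane collagen of neurons, had 0.546 FPKM in the Trrap-deleted cortex and 0.111 FPKM in the control, and Col9a1, a fibril-associated chain, had 0.536 and 0.193 FPKM in that order. Col4a1 and Col4a2, the main collagen IV chains of basement membranes, were not listed, nor was Col5a2.

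The listed enzymes and receptors of the same matrix were higher, as were 58.0% of all rows. Among rows of 1 to under 10 FPKM in the higher library that share was 74.0%, so nothing is read from the counts below. Of 35 genes of collagen processing 2 were listed, both higher: P4ha3, a prolyl hydroxylase subunit (4.70 FPKM in the Trrap-deleted cortex, 1.22 FPKM in the control), and Sparc, a collagen-binding protein (76.9 and 39.0 FPKM in that order). Serpinh1, the collagen chaperone, and Lox, which cross-links collagen, were not listed. Of 28 matrix receptor genes 3 were listed and all were higher. Relative to the median row their log2 fold changes were only 0.10 for Itga5, 0.27 for Itga4 and 0.23 for Dag1. Itga5, the integrin subunit of the main fibronectin receptor, had 4.53 FPKM in the Trrap-deleted cortex and 2.91 FPKM in the control, opposite in direction to Fn1. Itga4, another fibronectin-binding subunit, had 3.19 FPKM in the Trrap-deleted cortex and 1.81 FPKM in the control, and Dag1, the laminin receptor dystroglycan, had 35.9 and 21.0 FPKM in that order. Timp3, a matrix-bound protease inhibitor, was the 1 listed gene of 28 proteases and inhibitors, at 8.03 FPKM in the Trrap-deleted cortex and 3.69 FPKM in the control.

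Other matrix proteins went both ways. Of 22 genes of fibronectin, fibulins and elastic fibres 8 were listed, 5 higher and 3 lower, with Fn1 among the lower. Postn (periostin) had 1.04 FPKM in the Trrap-deleted cortex and 0.307 FPKM in the control, Fbln2 (fibulin 2) had 4.69 and 1.64 FPKM in that order, and Eln (elastin) had 13.1 and 5.48 FPKM. Ltbp1, which holds latent TGF-beta in the matrix, was lower, at 7.37 FPKM in the Trrap-deleted cortex and 18.5 FPKM in the control. Of 21 laminin, nidogen and basement membrane genes 4 were listed and all were higher: the laminin chain gene Lama2 (1.46 FPKM in the Trrap-deleted cortex, 0.226 FPKM in the control), Npnt, nephronectin (2.23 and 0.664 FPKM in that order), Smoc1, a relative of Sparc (10.2 and 3.49 FPKM), and Nid2, nidogen 2 (4.15 and 2.35 FPKM). They thus differed in the opposite direction to Col18a1, another basement membrane gene. Beside these 4 stand the 58.0% of all rows that were higher, and 74.0% at 1 to under 10 FPKM in the higher library.

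Of 27 genes of the matrix of neural tissue 7 were listed, 4 higher and 3 lower. Cspg5, a brain chondroitin sulphate proteoglycan, had 15.4 FPKM in the Trrap-deleted cortex and 3.97 FPKM in the control, and Spock3 had 1.38 and 0.498 FPKM in that order. Bcan, brevican, was lower, at 4.96 FPKM in the Trrap-deleted cortex and 13.5 FPKM in the control, as was Has2, a hyaluronan synthase, at 0.107 FPKM in the Trrap-deleted cortex and 0.363 FPKM in the control. In the TGF-beta and matricellular list 2 of 21 were listed: Nov, a matricellular protein gene (2.00 FPKM in the Trrap-deleted cortex, 0.305 FPKM in the control), and Skil, an inhibitor of Smad signalling (22.7 and 17.4 FPKM), whose log2 fold change was 0.38 as deposited and -0.17 relative to the median row. Over all 11 matrix lists, 38 of 241 genes were listed, 31 higher and 7 lower. Outside the 7 genes these were 26 higher and 5 lower. The median log2 fold change of those 31 was 1.12, against 58.0% higher and a median of 0.54 over all rows. Many of the 31 were weakly expressed, and 74.0% of all rows of 1 to under 10 FPKM in the higher library were higher. The 31 were not matched to other rows by level, so nothing is read from their count.

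**Figure D4:**
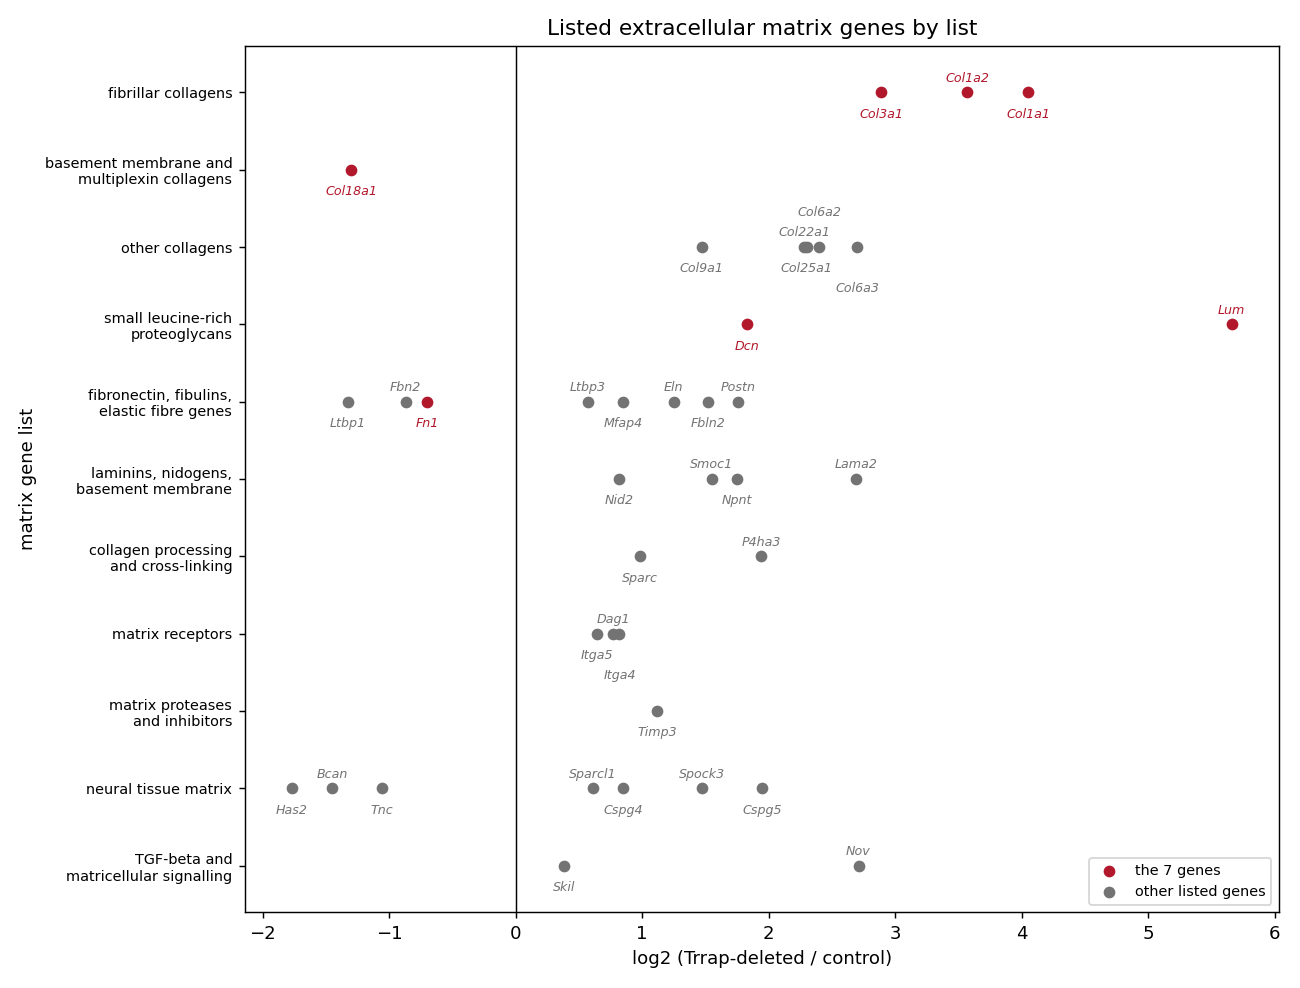
Log2 fold change (Trrap-deleted over control) of every listed gene of the 11 matrix lists, 1 list per line, with the 7 genes in red and the other listed genes in grey. Of the 38 genes 31 lie right of 0, and the 7 left of it are in the basement membrane collagen, fibronectin and neural tissue lists.

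Markers of other cells that could be in the dissected tissue were read beside these values. Of 26 endothelial and pericyte genes 2 were listed, Pdgfrb (3.60 FPKM in the Trrap-deleted cortex, 1.71 FPKM in the control) and Cspg4 (0.635 and 0.353 FPKM in that order), while the defining endothelial genes Pecam1 and Cdh5 were not. Of 22 microglial and macrophage genes 11 were listed and all were higher, with a summed level of 41.4 FPKM in the Trrap-deleted cortex and 16.2 FPKM in the control. Higher rows made up 58.0% of the whole table and 74.0% of the rows of 1 to under 10 FPKM in the higher library. Mrc1 lies below that range (0.860 FPKM in the Trrap-deleted cortex), and nothing is read from the count of 11. Fcgr3, Mrc1, C1qc and Lyz2 had the largest folds, between 2.94 and 4.18. Ttr, the 1 listed choroid plexus gene of 12, had 3.31 FPKM in the Trrap-deleted cortex and 0.104 FPKM in the control, at a locus of 116251 bases against 9042 in GENCODE M21, which makes the value uncertain. The part of these cells in the matrix differences was not tested.

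Listed markers of the labelled tissue had levels from 1.60 FPKM for Hey2 to 632 FPKM for Vim. The lists took only rows above 0 in both libraries, so their presence in both was set by that choice. The level of the markers that were not listed is unknown. All 4 listed cortical neuron markers of 16 were lower in the Trrap-deleted cortex as deposited: Neurod6 (260 FPKM in the Trrap-deleted cortex, 312 FPKM in the control), Fezf2 (42.5 and 55.9 FPKM in that order), Bcl11b (28.0 and 37.3 FPKM) and Stmn2 (53.9 and 158 FPKM). Lower rows made up 42.0% of the whole table. Neurod6 became higher by a log2 fold change of 0.08 when the libraries were rescaled to the same summed FPKM. Fezf2 (-0.05) and Bcl11b (-0.06) then hardly differed between the libraries, while Stmn2 stayed lower (-1.20). Relative to the median row all 4 were lower, with Neurod6 at -0.81, Fezf2 at -0.94, Bcl11b at -0.95 and Stmn2 at -2.09. The direction of the first 3 thus depends on the scaling or is close to 0 under 1 of them. Of 18 radial glia and progenitor markers 6 were listed, 2 higher and 4 lower as deposited. Vim, the intermediate filament vimentin, had 387 FPKM in the Trrap-deleted cortex and 632 FPKM in the control, and Prom1 (8.32 and 24.9 FPKM), Hey1 (17.5 and 25.3 FPKM) and Hey2 (1.60 and 4.48 FPKM) were lower too. Slc1a3 (55.1 FPKM in the Trrap-deleted cortex, 30.7 FPKM in the control) and Neurog2 (112 and 89.6 FPKM) were higher, although Neurog2 stood at -0.22 relative to the median row.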

How the data were processed

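RNA sequencing was done on the cortex of E14.5 embryos, 1 library per genotype. Per the labels' protocols, 2.5 µg of total RNA went into each TruSeq library. The submitters' processing notes name TopHat2 and build mm9. Which program counted and tested, and whether strand was used, are not stated in the sources used here. The table as deposited by the authors has 2381 rows, all marked significant (highest q-value 0.0500). Its 2 value columns were read as FPKM as the authors deposited them; the layout of the columns gives that unit, which the file does not write. The p-value and q-value columns are the authors' deposited values, with no replicate known to stand behind them. The authors' deposited test statistic is a score whose sign is opposite to their log2 fold change in all 2376 rows with both values above 0, and their p-value equals the two-sided normal value of it with a largest relative deviation of 3.21e-05 among p-values above 1e-10. The deposited log2 fold change matches the ratio of the KO and CONTROL columns with a largest deviation of 1.18e-05.

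From the FPKM, log2 fold changes were computed with no pseudocount (Python 3.11.15, pandas 2.3.3), and counts and medians were set beside those of all rows. No test was run, since there are no replicates and the genes were chosen on this comparison. The depth of the libraries is unknown, and no counting error or floor is given. Starts were moved to 1-based counting. The members and the 17 gene lists were chosen with earlier results of these data known. Older symbols were merged through NCBI's gene table. All genes of a list with up to 6 listed members were named, otherwise the 4 with the largest differences, plus the 2 nearest rows per gene by Euclidean distance; genes named as not listed were picked for their textbook role. The calculation of counts and medians was run on simulated data with planted ratios and no noise, which checks the arithmetic only. Alternatives were 2 pseudocounts, 2 rescalings, 2 filters on low FPKM and a stricter q-value.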

Additional observations from a re-analysis of the deposited data

How the results depend on the processing

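No paired analysis was possible because each genotype had 1 library, and for the same reason no library could be left out. None of the 7 genes changed direction under any of the alternatives that kept it. A pseudocount or a filter cannot reverse a direction, so only the 2 rescalings bear on this. Under them the smallest value was that of Fn1, -0.35 at the same summed FPKM. Of 44 values of single genes under alternatives, 38 stayed within 1.5-fold of the value reported and 6 moved further. All 6 came from a pseudocount and are in Lum, Col1a1, Col1a2 and Col3a1. Only a pseudocount could move a value that far, so the 38 are no measure of stability. Filters leave a single value as it is. Rescaling to the median row lowers every log2 fold change by 0.54, and rescaling to the same summed FPKM raises it by 0.35, both less than 1.5-fold. With a pseudocount of 1 FPKM, Lum had a log2 fold change of 0.99 and Col1a1 1.13, the median of the 7 genes became 1.13, and 10.6% of all rows were at least 2-fold higher. That share was 11.0% with the libraries rescaled to put the median row at 0 and 42.3% after rescaling to the same summed FPKM. With at least 5 FPKM in the higher library, only Col18a1, Dcn and Fn1 were left; 1 of these 3 was higher, the median was -0.70, and 13.6% of rows were at least 2-fold higher. At an authors' q-value under 0.01 Lum dropped out, leaving 4 higher and 2 lower. Depth is unknown, which limits above all the control values of Lum and Col1a1.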

Other observations

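With no pseudocount, the order of the 5 higher genes by fold change was the reverse of the order by level in both libraries. Lum had the lowest level and the largest fold, followed by Col1a1, Col1a2, Col3a1 and Dcn. Their levels spanned 6.20-fold from lowest to highest in the Trrap-deleted cortex and 88.2-fold in the control. The order did not hold with a pseudocount: with 0.1 FPKM added, Col1a2 (log2 fold change 3.07) passed Col1a1 (3.01), and with 1 FPKM added Lum had the smallest value (0.99) and Col3a1 the largest (1.72). The control level is the denominator of each fold, the 5 values share both libraries, and no test was made of this order.

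Col6a2, which was higher, and Col18a1, which was lower, lie on the same chromosome 10 with 408610 bases between their loci on mm9. This pair was noticed after the values were seen.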
